A study of Mus musculus with 6 samples.

Results

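Genes of the Six-family, Eya and Pitx groups encode transcriptional regulators of muscle formation. The 8 genes described here (Six2, Six4, Eya1, Eya2, Eya3, Eya4, Pitx1 and Pitx3) were found by their exact gene symbol among the 55421 genes of the deposited tables. The rule used no measured value, but the set was proposed with earlier results of these data known. The cells were C2C12, mouse myoblasts that withdraw from the cell cycle in low serum and fuse into multinucleated myotubes. All 6 libraries came from a myotonic dystrophy type 1 (DM1) model, in which C2C12 cells stably carried a GFP gene with 200 CTG repeats behind its coding region. Control cells (3 libraries) were stably transfected with the empty vector, and miR-322/-503 cells (3 libraries) with a pLL4.0 plasmid that encodes both microRNAs. RNA was collected on day 4 of differentiation in horse serum and insulin. Each group was its own drug-selected line, whether a line was 1 clone is not given in the sources used here, and effects of the microRNAs and of the line cannot be told apart. The study's methods speak of both biological and technical replicates for its assays, and the labels do not say which of these the libraries are, so p-values measure the spread between these libraries, which may be technical.

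Six-family proteins are homeodomain factors that bind the MEF3 element in muscle genes. Eya proteins do not bind DNA themselves. They join the Six-family proteins on chromatin as coactivators and also carry a phosphatase domain. Dach proteins and the Groucho-related Tle proteins act as corepressors in the same network, and Pitx proteins are homeodomain factors of limb, pituitary and muscle development. In muscle progenitors Eya and Six-family proteins act upstream of the myogenic factors Myf5, Myod1 and Myog, and in mature muscle they help to maintain the fast-fibre programme.

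At the level of mRNA, Eya4 and Eya3 were lower in miR-322/-503 cells, at 64.7% (95% interval 58 to 72.2) and 74.7% (61.7 to 90.4) of the control. Six4 stood at 90.9% (82.4 to 100.3) and Eya1 at 93.1% (75.4 to 114.9), and neither passed the test. Six2 and Eya2 had no count in any library, and Pitx1 and Pitx3 were close to the limit of detection. The network was therefore represented by Six4 and 3 Eya genes among these members, and 2 of these 4 genes passed the test, beside 15.5% of all tested genes that were lower. The call of Eya3 was lost in 4 of 6 fits with 1 library left out.

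The 2 overexpressed microRNAs are printed because members can be searched for their seed matches. Both are encoded on the minus strand of the X chromosome of GRCm38.p6, miR-322-5p at chrX:53054306-53054327 and miR-503-5p at chrX:53054027-53054049. Their mature RefSeq sequences read, with the seed (bases 2 to 8) in capitals:
mmu-miR-322-5p: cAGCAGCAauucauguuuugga
mmu-miR-503-5p: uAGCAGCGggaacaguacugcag
The seeds differ in their last base only. A full match to bases 2 to 8 therefore reads TGCTGCT for miR-322-5p and CGCTGCT for miR-503-5p, and both contain the hexamer GCTGCT. The microRNA genes themselves were too low in these libraries to serve as a check of the overexpression. The control libraries held 1, 7 and 2 estimated counts of Mir322 (replicates 1 to 3), and the miR-322/-503 libraries 17, 0 and 3. For Mir503 the numbers were 1, 1 and 2 against 6, 4 and 5.

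The longest annotated 3′UTR of each member (GENCODE M21, GRCm38) was searched on the transcript strand, and Eya1 was the member with a full seed match. Its 3′UTR of 1962 bases held 1 match for miR-322-5p, at chr1:14169206-14169212 on the minus strand, followed by A. Among 2070 tested genes with a 3′UTR of like length, 30% held such a match. Eya3 (3406 bases) and Eya4 (3245 bases) held no full match, whereas 45.6% and 44.4% of genes of like length did. They held the shorter hexamer, at 3 places in Eya3, of which 1 was followed by A, and at 1 place in Eya4, as did 74.8% and 74.2% of genes of like length. Six4, with the longest 3′UTR of the members (5170 bases), held neither the full match nor the hexamer, although 58.9% and 87% of genes of like length did. Six2, Eya2, Pitx1 and Pitx3 held none of them, and no member held the full match for miR-503-5p. The matched letters stand in capitals in the stretches below, the first with the full match and the others with the hexamer alone:
Eya1, chr1:14169198-14169227, minus strand: tctaaaagtccatgtTGCTGCTaaaattag
Eya1, chr1:14170782-14170810, minus strand: gcatatggatgcataGCTGCTgcgggctt
Eya3, chr4:132721713-132721741, plus strand: acggactgaccgggaGCTGCTcctgatgt
Eya3, chr4:132723524-132723552, plus strand: caggcagcatcaagaGCTGCTagtaagag
Eya3, chr4:132724337-132724365, plus strand: aagcgtgtgctcccgGCTGCTcactggtc
Eya4, chr10:23104445-23104473, minus strand: ttaatctcatctgagGCTGCTtcataaga
Eya1, with the full match, did not pass the test of its mRNA, and Eya3 and Eya4 held the hexamer without a full match. A match is a description of letters, and binding was not measured here.

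Expression is given on 2 scales. Differences between the groups are given as CPM, estimated counts scaled to a common library size after TMM correction, and levels of different genes are compared as TPM, which accounts for transcript length. Total estimated counts lay between 73532084 and 92157388 per library, and about 4 counts stood for 1 read pair. In edgeR's quasi-likelihood test over 18140 genes, 13.2% were higher and 15.5% lower in miR-322/-503 cells at an adjusted p under 0.05. With a log2 fold change beyond 1 as well, 4.59% were higher and 5.29% lower. The median log2 fold change of all tested genes was -0.01. The muscle identity of the samples was checked with 8 muscle markers, which were all detected. Their summed level was 4873 to 5360 CPM in the control and 6486 to 6776 CPM in miR-322/-503 cells. Fusion into myotubes is not measured by these levels. Myh3, the embryonic myosin heavy chain of newly formed myotubes, stood at 534.4 to 559.9 CPM against 456.9 to 593.9 CPM. Endothelial, fat, and bone and cartilage markers, each class summed on its own, did not exceed 0.505 CPM in any library.

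Of the 8 members, 4 passed the filter on low counts and 4 did not. Among the 4 that passed, 2 were called lower, beside 15.5% of all tested genes, and this count was 1 when any of 4 single libraries was left out. None was called higher at an adjusted p or an unadjusted p under 0.05, and none lay beyond a log2 fold change of 1. No member was called higher or beyond that fold change by DESeq2 or by limma on TPM either. The values of 3 of the 4 did not overlap between the groups and were lower in miR-322/-503 cells, as was the case for 23.5% of all tested genes. The median log2 fold change of the 4 was -0.28.

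**Figure D1:**
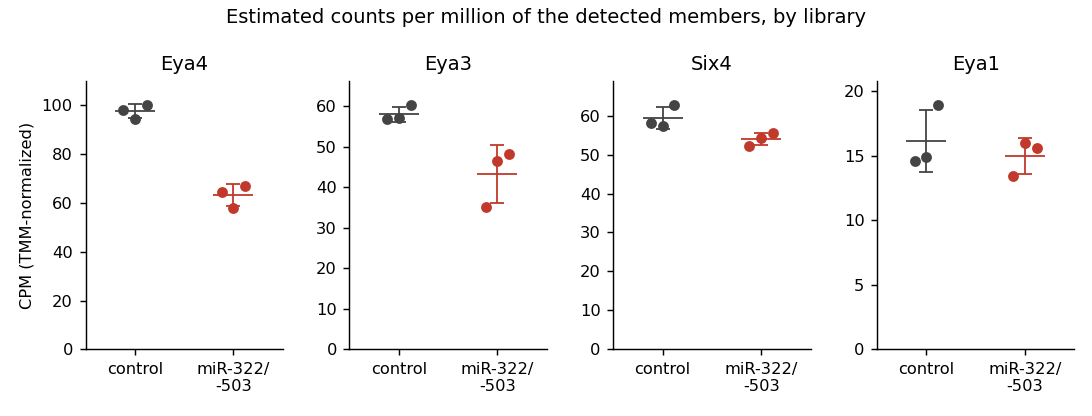
CPM (vertical axis from 0, a scale per gene) of Eya4, Eya3, Six4 and Eya1 in 3 control (grey) and 3 miR-322/-503 libraries (red). Points are libraries, the long dash is the mean and the bars are 1 SD. The groups were apart for Eya4 (94.4 to 99.8 against 58 to 66.9 CPM), Eya3 and Six4, and overlapped for Eya1.

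Eya4 (ENSMUSG00000010461) is a coactivator of Six-family proteins best known for its roles in hearing, heart and muscle. The gene spans 248 kb at chr10:23102963-23350786 on the minus strand, with 8 annotated transcripts. In control replicates 1 to 3 it was measured at 98.1, 94.4 and 99.8 CPM, and in the miR-322/-503 replicates at 64.3, 58 and 66.9 CPM. All control libraries lay above all miR-322/-503 libraries, and the gap between the groups exceeded the spread within either of them. The means were 97.4 ± 2.75 CPM (SD, n = 3) and 63 ± 4.59 CPM (SD, n = 3). The log2 fold change was -0.63 (SE 0.07, adjusted p = 4.32e-04, edgeR quasi-likelihood test). Of all tested genes, 13.2% had a lower fold change. The call was kept in all 14 alternatives that test for any difference, with log2 fold changes from -0.67 to -0.57. It was not made when the change was tested against a log2 fold change of 1 (glmTreat).

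Eya3 (ENSMUSG00000028886) encodes the Eya protein that is found most widely across tissues, known among other roles for the phosphatase that acts on histone H2AX after DNA damage. The gene lies at chr4:132638987-132724765 on the plus strand, over 85.8 kb, and has 13 annotated transcripts. It was measured at 56.8, 57.1 and 60.2 CPM in the control and at 35.2, 46.6 and 48.2 CPM in miR-322/-503 cells. The groups did not overlap, and miR-322/-503 replicate 1 lay well below the other libraries. The means were 58 ± 1.91 CPM (SD, n = 3) and 43.4 ± 7.08 CPM (SD, n = 3). The log2 fold change was -0.42 (SE 0.12, adjusted p = 0.0329, edgeR quasi-likelihood test). The call was lost without control replicate 1, 2 or 3 (log2 fold change -0.44, -0.44 and -0.40, adjusted p = 0.0772, 0.0766 and 0.0861) and without miR-322/-503 replicate 2 (log2 fold change -0.48, adjusted p = 0.0513). Without miR-322/-503 replicate 1 the log2 fold change was -0.29 (adjusted p = 0.029, edgeR).

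Six4 (ENSMUSG00000034460) encodes a homeodomain factor that binds the MEF3 element and acts in limb and trunk myogenesis. It is a compact gene of 13.8 kb at chr12:73099609-73113456 on the minus strand. It was measured at 58.2, 57.2 and 62.6 CPM in the control and at 52.2, 54.3 and 55.4 CPM in miR-322/-503 cells. Each control library exceeded each miR-322/-503 library, but the gap was small. The means were 59.3 ± 2.88 CPM (SD, n = 3) and 54 ± 1.6 CPM (SD, n = 3). The log2 fold change of -0.14 (SE 0.06, 95% interval -0.28 to 0.00) did not pass the test (adjusted p = 0.137, edgeR). It was negative and not called in all 14 alternatives.

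Eya1 (ENSMUSG00000025932) is the Eya gene whose loss disturbs ear, kidney and muscle development, and a partner of Six-family proteins in the fast-fibre programme. It spans 141 kb at chr1:14168954-14310235 on the minus strand. It was measured at 14.6, 14.9 and 18.9 CPM in the control and at 13.4, 16 and 15.6 CPM in miR-322/-503 cells. The groups overlapped, and the highest of the 6 values was that of control replicate 3. The log2 fold change was -0.10 (SE 0.13, 95% interval -0.41 to 0.20, adjusted p = 0.612, edgeR). It was 0.02 without control replicate 3, so that these libraries give no direction for Eya1.

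The remaining 4 members could not be tested. Six2 (ENSMUSG00000024134, chr17:85684277-85688274), a factor of kidney and connective tissue progenitors, and Eya2 (ENSMUSG00000017897, chr2:165595032-165771727), a coactivator expressed in embryonic muscle, had 0 estimated counts in all 6 libraries. A count of 0 allows up to 3 read pairs, that is 12 estimated counts, per library, for counting error only. Pitx1 (ENSMUSG00000021506, chr13:55825051-55836192), a factor of hindlimb identity, had 8 estimated counts in control replicate 2 and 0 in the other libraries. Pitx3 (ENSMUSG00000025229, chr19:46135685-46148326), a factor of the lens, dopaminergic neurons and differentiating muscle, was listed in the control with 0, 5 and 9 estimated counts, and in miR-322/-503 cells with 12, 0 and 27. The Pitx3 groups overlapped, and 1 library, miR-322/-503 replicate 3, lay above the 12 counts. No fold change is given for these genes, and a difference was not detectable at this depth.

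**Figure D2:**
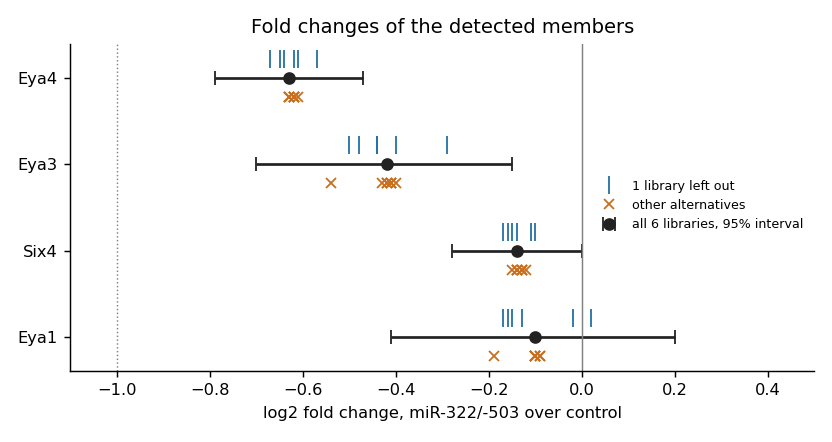
Log2 fold changes (horizontal axis, miR-322/-503 over control) of Eya4, Eya3, Six4 and Eya1 with 95% intervals over all 6 libraries (black), with 1 library left out (blue ticks) and under the other alternatives (orange crosses). The dotted line stands at -1. Eya4 stayed between -0.67 and -0.57, Eya3 between -0.54 and -0.29, Six4 between -0.17 and -0.10, and Eya1 crossed 0.

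The members were then compared within each library, where depth cancels out. The log2 ratio of Eya4 to Six4 (in CPM) was 0.75, 0.72 and 0.67 in the control and 0.30, 0.09 and 0.27 in miR-322/-503 cells. All control ratios lay above all miR-322/-503 ratios, and the mean difference was -0.49. That of Eya3 to Six4 was -0.04, -0.00 and -0.06 against -0.57, -0.22 and -0.20, a difference of -0.30. Against Eya1, the differences were -0.53 for Eya4 and -0.34 for Eya3, again without overlap. These 4 differences each had a p of 0.1 in a two-sided exact permutation test, the smallest that 3 against 3 libraries allow, and an adjusted p of 0.15 over the 6 pairs compared. The ratio of Eya4 to Eya3 overlapped between the groups (difference -0.20, exact permutation p = 0.4), and so did that of Six4 to Eya1 (difference -0.04, exact permutation p = 0.9). With this test no pair could pass a threshold of 0.05.

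Per length, Eya3 and Eya4 were the highest members. Eya3 was measured at 47.3, 33.6 and 35.9 TPM in the control and 22.6, 29 and 27.4 TPM in miR-322/-503 cells. Eya4 was measured at 38.8, 35.9 and 37.4 TPM in the control and 25.7, 22.3 and 24 TPM in miR-322/-503 cells. The TPM of these 2 genes overlapped in each group, so their order was not resolved. Six4 came next, with 16.8 to 18.4 TPM in the control and 15.4 to 16.2 TPM in miR-322/-503 cells, and Eya1 last, with 9.54 to 11.2 TPM and 7.83 to 9.94 TPM. These 2 steps of the order were free of overlap in both groups. Six2 and Eya2 were listed at 0 TPM, and Pitx1 and Pitx3 did not exceed 0.534 TPM.

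**Figure D3:**
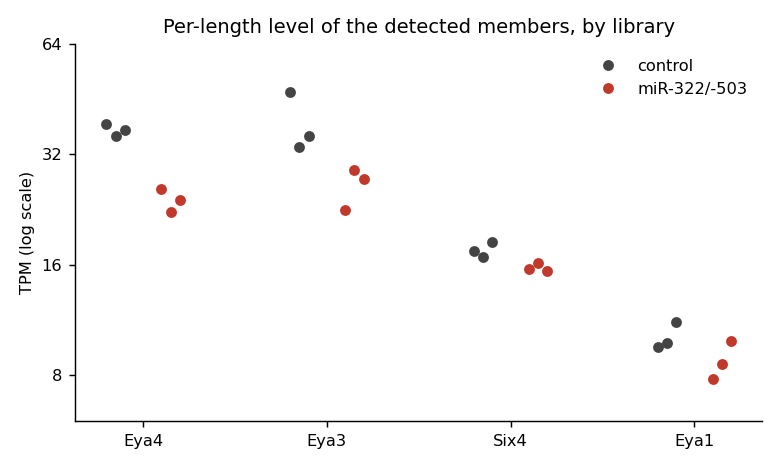
Per-length level (TPM, vertical axis, log scale) of Eya4, Eya3, Six4 and Eya1 in the control (grey) and miR-322/-503 libraries (red), 1 point per library. Eya3 and Eya4 overlap each other, and lie above Six4 (15.4 to 18.4 TPM) and Eya1 (7.83 to 11.2 TPM) in both groups.

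The TPM of Eya3 varied more in the control than its CPM did (coefficients of variation of 18.8% and 3.29%). In control replicate 1, Eya3 had 0.833 TPM for each CPM, against 0.569 to 0.643 in the other 5 libraries. TPM depends on which transcript lengths the reads are assigned to, while CPM does not. For Eya4 this quotient lay between 0.359 and 0.399 in all libraries, and for Six4 between 0.278 and 0.299. The higher level of Eya3 in control replicate 1 therefore appears on the TPM scale only.

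As a group, the Eya genes summed to 95.7, 79.3 and 84.5 TPM in the control and 56.1, 59.8 and 61.4 TPM in miR-322/-503 cells. The groups did not overlap, with means of 86.5 ± 8.37 TPM (SD, n = 3) and 59.1 ± 2.69 TPM (SD, n = 3). Eya coactivator mRNA thus stood at 4.94 ± 0.491 TPM per TPM of Six4 in the control and at 3.76 ± 0.206 in miR-322/-503 cells (SD, n = 3). Eya3 made up 40.3% to 49.4% of the summed Eya TPM over the 6 libraries, Eya4 37.2% to 45.7% and Eya1 9.98% to 16.2%. In bulk RNA, fewer cells of a type and less RNA per cell cannot be told apart, here or for any gene below.

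For each tested member, the 10 tested genes on each side were examined. Of all tested genes, 50.7% had a log2 fold change below 0. The difference between the surroundings of the members was not tested. Around Eya3, 19 of 20 neighbours had a log2 fold change below 0, with a median of -0.33 and a range from -2.65 to 0.24. They spanned 0.881 Mb of chromosome 4, on which the median of 1046 tested genes was -0.19. Eya3 (-0.42) thus lay close to its neighbours, 7 of which were lower. Around Eya4, 9 of 20 neighbours were below 0, with a median of 0.20, and 3 were lower than Eya4 (-0.63). The median of 892 tested genes on chromosome 10 was 0.00. The neighbours of Six4 had a median of -0.09 and those of Eya1 a median of 0.22. The part of the surroundings in the difference of Eya3 was not tested.

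**Figure D4:**
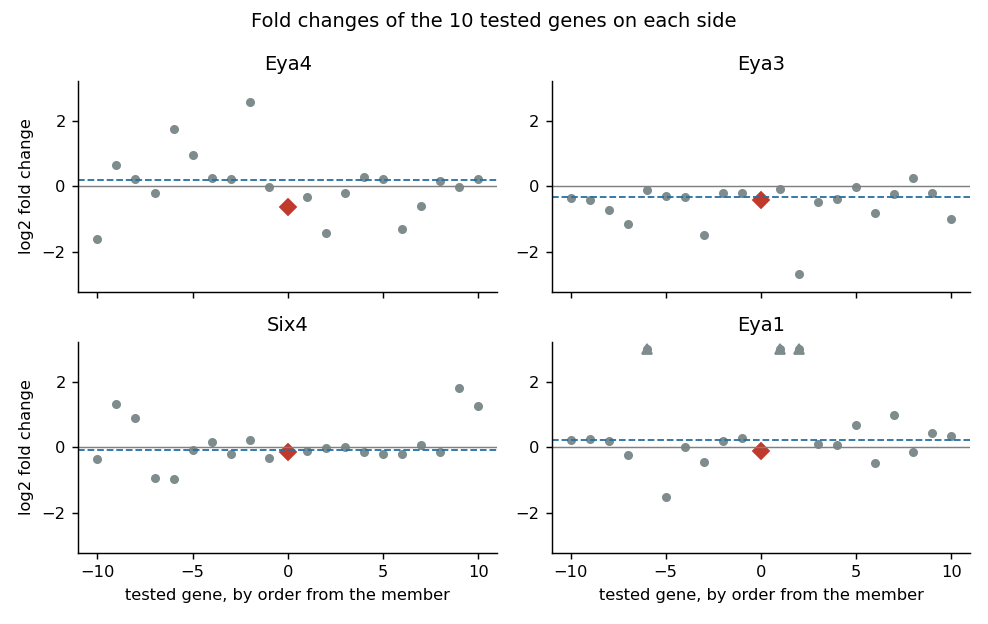
Log2 fold changes (vertical axis, miR-322/-503 over control) of the 10 tested genes on each side of Eya4, Eya3, Six4 and Eya1, numbered in order along the chromosome from the member at 0 (red diamond). The dashed line is the median of the 20 neighbours, and triangles mark values above 3. Around Eya3, 19 of 20 neighbours lie below 0, with a median of -0.33, and around Eya4 9 of 20.

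The partners of the members were described through 25 genes: regulators upstream and downstream of Eya proteins and their DNA-binding partners, the Mef2 factors, the Tle corepressors, the cofactor Sobp, and further Six-family, Pitx and Dach genes. Of the 19 that were tested, 8 were higher and 3 lower at an adjusted p under 0.05, beside 13.2% and 15.5% of all tested genes, and the median log2 fold change was 0.35 beside -0.01. Past a log2 fold change of 1, 1 was higher and 1 lower, beside 4.59% and 5.29% of all tested genes. The share of lower genes and both shares past the fold threshold were thus near those of all tested genes. Among the 7 further Six-family, Pitx and Dach genes, 3 were tested and none was called at an adjusted or unadjusted p under 0.05 in edgeR, while 2 were at 0 in all libraries. Of the 4 that did not pass the filter, a Six-family gene of very low level passed it and was called lower in 4 of 6 fits with 1 library left out.

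Mef2c, a MADS-box factor of differentiating muscle, was the partner that was higher beyond the fold threshold. It was measured at 2.49, 1.61 and 1.6 CPM in the control and at 20.8, 22.3 and 26.8 CPM in miR-322/-503 cells. Its log2 fold change was 3.61 (SE 0.21, adjusted p = 2.23e-05, edgeR). Tle4, a Groucho-related corepressor, was the partner that was lower. It was measured at 2.2, 2.88 and 2.13 CPM against 0.556, 0.32 and 0.505 CPM, with a log2 fold change of -2.38 (SE 0.28, adjusted p = 7.14e-04, edgeR). Its paralog Tle2 was lower too (-0.56, adjusted p = 0.00282, edgeR), while Tle1 (0.78, adjusted p = 0.00101, edgeR) and the short family member Tle5 (0.46, adjusted p = 0.00172, edgeR) were higher. Smaller rises were found for Mef2a (0.39, adjusted p = 0.00172, edgeR) and Mef2d (0.42, adjusted p = 0.00537, edgeR). Met, the receptor of hepatocyte growth factor on migrating muscle progenitors, rose by 0.96 on the log2 scale (adjusted p = 0.00241, edgeR).

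The myogenic bHLH factors, known targets of Six-family and Eya proteins, did not share a direction. Myod1, the determination factor, was measured at 50.7, 49.3 and 39.8 CPM in the control and at 60.1, 62.2 and 58.1 CPM in miR-322/-503 cells, and rose by a log2 fold change of 0.37 (adjusted p = 0.027, edgeR). Myf5, the other early factor, stood at 36.7 to 38.5 CPM against 47.8 to 48.4 CPM, a rise of 0.35 on the log2 scale (adjusted p = 0.00364, edgeR). Myog (myogenin), which drives terminal differentiation and whose promoter holds a known MEF3 element, was measured at 209.1, 214.9 and 185.1 CPM against 117.0, 133.6 and 115.0 CPM. Its groups were far apart, and its log2 fold change was -0.74 (SE 0.09, adjusted p = 6.65e-04, edgeR). Myf6 lay between 0 and 0.585 CPM in all libraries and was not called (adjusted p = 0.635, edgeR).

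Likeness to Eya4 and Eya3 was measured as the distance between log2 CPM profiles over the 6 libraries, each set relative to its control mean, among 35 genes of the partner and fast-muscle lists. The genes nearest to Eya4 were Tle2 (distance 0.34) and Myog (0.42). The genes nearest to Eya3 were Tle2 (0.50) and Tle3 (0.53), the latter with a log2 fold change of -0.18 that was not called. This distance was not scaled, so it reflects the size of the group difference as well as the pattern over the 6 libraries. The ranking was not tested.

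Genes of fast muscle fibres, many of which are known to depend on Six-family and Eya proteins, were described through a list of 17. Of the 16 that were tested, 8 were higher and 3 lower at an adjusted p under 0.05, beside 13.2% and 15.5% of all tested genes, and the median log2 fold change was 0.43. The share of lower genes was near that of all tested genes. Past a log2 fold change of 1, 4 were higher and 2 lower, beside 4.59% and 5.29%. The fast myosin light chain gene Myl1 was higher, at 65.3 to 85.5 CPM in the control and 262.6 to 314.2 CPM in miR-322/-503 cells (log2 fold change 1.86, adjusted p = 3.92e-05, edgeR). Also higher were the phosphoglycerate mutase gene Pgam2 (log2 fold change 1.46, adjusted p = 1.49e-04, edgeR) and the fast troponin genes Tnni2 (1.12, adjusted p = 8.28e-05) and Tnnt3 (1.04, adjusted p = 2.97e-04). The remaining rises that passed the test were those of Tnnc2 (0.85), Actn3 (0.79), Mylpf (0.50) and Aldoa (0.35), with adjusted p from 1.68e-04 to 0.00907 (edgeR).

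The adult fast myosin heavy chains went the other way. Myh2 was measured at 19.5, 21.8 and 18.4 CPM in the control and at 2.33, 3.15 and 2.65 CPM in miR-322/-503 cells (log2 fold change -2.88, adjusted p = 1.06e-05, edgeR). Myh1 was measured at 82.1, 87.3 and 79.1 CPM against 26.1, 34.8 and 31.1 CPM (log2 fold change -1.43, adjusted p = 7.48e-05, edgeR). In neither gene did the groups overlap. Myh4, the third gene of this kind in the list, was lower by less (-0.88, adjusted p = 0.00109, edgeR). Of the other glycolytic genes of the list, Eno3 (log2 fold change -0.07, adjusted p = 0.608, edgeR) and Pfkm (-0.09, adjusted p = 0.31, edgeR) were not called.

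**Figure D5:**
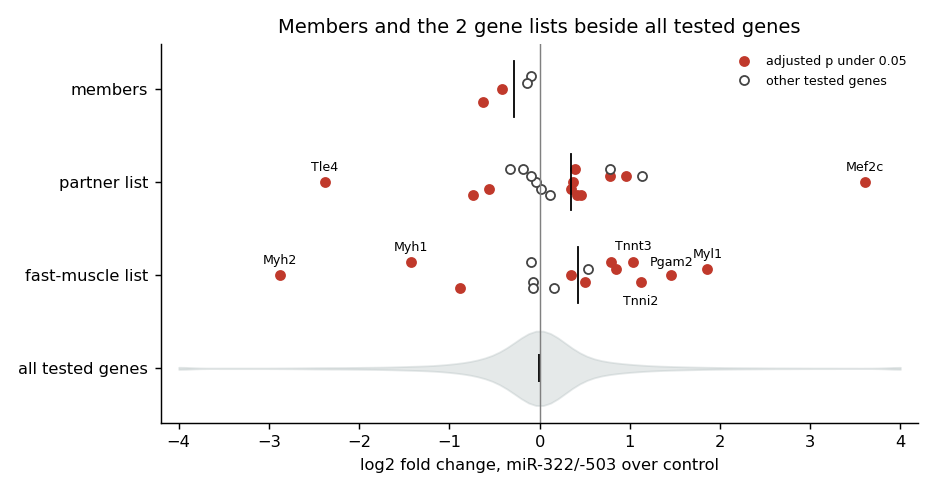
Log2 fold changes (horizontal axis, miR-322/-503 over control) of the tested members, the tested genes of the partner and fast-muscle lists, and all 18140 tested genes (grey density, values beyond 4 drawn at the edge). Filled points passed an adjusted p under 0.05, black bars are medians (-0.28, 0.35, 0.43 and -0.01), and genes of the 2 lists called beyond a log2 fold change of 1 are named. The 4 tested members lie between -0.63 and -0.10.

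The RefSeq promoter windows, from 250 bases before to 50 after a start (GRCm38.p6), were searched on both strands for the core letters of the MEF3 element, TCAGGTT. Windows were at hand for 5 members (Six2, Six4, Eya3, Eya4 and Pitx3), 7 windows in all, and not for Eya1, Eya2 and Pitx1. A window of Six4, at chr12:73113196-73113495, held the element on the opposite strand, 97 bases before the start, and the other 6 windows did not. Of all 32851 windows, 4.07% held it. None of 20 windows of 14 fast-muscle genes did. The E-box CAGCTG, a binding sequence of myogenic bHLH factors, stood in 1 window of Pitx3 and in 8 of the 20 fast-muscle windows, against 16.3% of all windows.

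Markers of other cell types were near 0, with exceptions. The epithelial markers summed to 34.2 to 39.3 CPM in the control and 11.7 to 14.4 CPM in miR-322/-503 cells, nearly all from the keratin gene Krt14 (log2 fold change -1.43, adjusted p = 9.15e-05, edgeR), while Epcam and Cdh1 did not exceed 0.4 CPM. Neural markers summed to 0.672 to 0.924 CPM against 0.12 to 0.136 CPM, all from the astrocyte filament gene Gfap, with Rbfox3 and Sox10 at 0. Leukocyte markers summed to 2.5 to 3.92 CPM against 3.86 to 4.28 CPM, with Ptprc at 0 in 5 libraries. The sum over the 8 muscle markers, given above, was higher in miR-322/-503 cells, but its members differed: 5 were called higher, Myog was called lower, and Myh3 (log2 fold change -0.05) and Acta1 (0.09) were not called. The part of these levels in the differences of Eya4 and Eya3 was not tested.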

How the data were processed

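RNA-seq libraries of control (3) and miR-322/-503 (3) DM1 myoblasts on day 4 of differentiation were used. Per the submitters' processing notes and the study's methods, the authors trimmed reads with Trim Galore, aligned them with HISAT2 to GRCm38 and quantified them with StringTie, with versions and annotation not given in the sources used here. The authors deposited a gene table of unnormalized, whole-number estimated counts, and for each library a table of FPKM, TPM and coverage, the last a signal per base. In low genes 300 covered bases were the commonest value and 1 count stood for 74.99 bases, so about 4 counts represent 1 read pair.

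Counts were tested as deposited with edgeR 4.0.16 (R 4.3.3), using filterByExpr, TMM, glmQLFit and glmQLFTest, with p-values adjusted by Benjamini-Hochberg for 18140 genes. Standard errors are the log2 fold change divided by the square root of F. TMM factors lay between 0.9768 and 1.0348. The fits were tested on simulated data. Same-numbered libraries correlated at 0.131, 0.0687 and 0.0451, so the numbers were not taken as pairs. All members are named. From the partner and fast-muscle lists, genes called beyond a log2 fold change of 1, the 4 myogenic bHLH factors and the 2 genes nearest to each called member are named, and the other genes of these lists and the markers were named after their values were seen. Members and lists were chosen with earlier results of these data known. Alternatives were DESeq2 1.42.0, limma 3.58.1 on log2(TPM + 1), glmTreat, other normalizations and filters, FPKM, a replicate block, leaving out each library and, added after seeing the data, counts per read pair.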

Additional observations from a re-analysis of the deposited data

How the results depend on the processing

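Eya4 kept its call in all 14 alternatives that test for any difference (log2 fold change -0.67 to -0.57), and Six4 was not called in any of them (adjusted p = 0.085 to 0.335). Eya3 was called in 10 of 14, including DESeq2 (adjusted p = 0.00609) and limma on TPM (-0.54). With 1 library left out, its log2 fold change ranged from -0.50 to -0.29, the count of members called lower from 1 to 2, and Eya1 from -0.17 to 0.02, the last without control replicate 3. With 1 library left out, 3 to 5 partner genes were called lower and 2 to 5 were beyond a log2 fold change of 1. The latter count was 4 without miR-322/-503 replicate 2 and 5 without replicate 3, where Met crossed the fold threshold and genes of very low level, among them a Six-family gene, passed the filter on counts. Tested against a log2 fold change of 1 (glmTreat), 0 members, 1 partner gene and 2 fast-muscle genes were lower, and 1 partner gene and 2 fast-muscle genes were higher, a stricter test by construction. Ratios between members are the same in FPKM and TPM by construction, since both differ by 1 factor per library.

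With the replicate number as a block, the log2 fold changes were -0.63 for Eya4, -0.43 for Eya3 (adjusted p = 0.0229), -0.14 for Six4 and -0.10 for Eya1, and no call on a member changed.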

Other observations

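With 3 libraries per group and 1 line per group, the intervals cover the spread between these libraries. The genes at 0 or below 12 estimated counts cannot be compared, and deeper libraries would be needed for Pitx1 and Pitx3. Protein levels, phosphatase activity and binding of Six-family or Eya proteins to chromatin were not measured in these data, and the sequence matches were not tested for function.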
